A study of Mus musculus with 8 samples.

Results

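The genes described here are 40 cytosolic molecular chaperones and their regulators: Hsp70, Hsp110 and Hsp90 proteins, small heat shock proteins, DnaJ and Bag co-chaperones, chaperonin subunits and heat shock factors. They were taken by symbol from a list of names, and all 40 were found among the 24341 genes listed in each library. The data are RNA-seq libraries of tibialis anterior, a fast-twitch hind limb muscle, from 8 chow-fed mice aged 12 weeks and described as male, with 4 separate animals of each genotype. The knockouts, Carm1 skm-/-, carried floxed Carm1 together with the HSAcre transgene (Tg/0), in which the human skeletal actin promoter drives Cre recombinase in muscle fibres. The controls, Carm1 skm+/+, carried floxed Carm1 and no transgene (HSAcre 0/0), so effects of the transgene and of the loss of Carm1 cannot be told apart, and other cells of the muscle keep the gene. Carm1 encodes a protein arginine methyltransferase that acts on histones and other proteins.

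Chaperones bind unfolded or partly folded proteins and hold or refold them. Hsp70 proteins take clients from DnaJ co-chaperones, and Hsp110 and Bag proteins drive the nucleotide exchange that releases the client. Hsp90 completes the folding of kinases and receptors, the chaperonin folds actin and tubulin inside a ring, and small heat shock proteins hold clients without ATP. Many of these genes are induced by heat shock factors, which bind heat shock elements made of alternating GAA and TTC units. In skeletal muscle, small heat shock proteins, Bag3 and Unc45b are known for protecting the filaments of the contracting fibre.

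Promoters are shown for the neighbouring genes Hspa1a, Hspa1b and Hspa1l, because Hspa1l has the smallest p among the members and the first pair is near-identical, for Hsph1 and Chordc1, because they hold a full heat shock element, and for Dnaja1, which has the next smallest p. The windows run from 250 bases before to 50 after the gene start and come from RefSeq on GRCm38.p6. They read 5′ to 3′ along the gene, and capitals mark matches to GAANNTTC or TTCNNGAA, a pair of units, or to the longer element of 3 units.
Hspa1a, chr17:34972107-34972406, minus strand: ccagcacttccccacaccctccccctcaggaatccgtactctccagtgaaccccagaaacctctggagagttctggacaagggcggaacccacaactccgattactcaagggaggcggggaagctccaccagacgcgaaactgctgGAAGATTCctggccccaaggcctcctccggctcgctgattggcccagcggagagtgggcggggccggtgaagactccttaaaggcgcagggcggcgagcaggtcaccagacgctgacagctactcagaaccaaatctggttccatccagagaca
Hspa1b, chr17:34959189-34959488, minus strand: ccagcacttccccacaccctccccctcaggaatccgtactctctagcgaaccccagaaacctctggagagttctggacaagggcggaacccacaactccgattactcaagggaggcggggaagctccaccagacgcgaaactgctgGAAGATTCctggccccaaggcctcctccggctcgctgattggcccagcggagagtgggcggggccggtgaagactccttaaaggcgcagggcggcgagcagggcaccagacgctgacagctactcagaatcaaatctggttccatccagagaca
Hspa1l, chr17:34972453-34972752, plus strand: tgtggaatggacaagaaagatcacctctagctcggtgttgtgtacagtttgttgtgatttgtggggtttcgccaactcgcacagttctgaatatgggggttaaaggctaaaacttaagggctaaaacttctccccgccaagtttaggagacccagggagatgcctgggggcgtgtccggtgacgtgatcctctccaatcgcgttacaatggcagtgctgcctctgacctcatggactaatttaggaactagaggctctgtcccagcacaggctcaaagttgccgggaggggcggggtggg
Hsph1, chr5:149636266-149636565, minus strand: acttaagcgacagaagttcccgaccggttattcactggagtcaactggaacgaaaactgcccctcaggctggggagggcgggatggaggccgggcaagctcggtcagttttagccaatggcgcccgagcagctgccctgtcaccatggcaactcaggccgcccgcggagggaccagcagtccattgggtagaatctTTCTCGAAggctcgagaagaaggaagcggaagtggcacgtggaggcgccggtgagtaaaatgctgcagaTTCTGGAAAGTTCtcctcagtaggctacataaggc
Chordc1, chr9:18292017-18292316, plus strand: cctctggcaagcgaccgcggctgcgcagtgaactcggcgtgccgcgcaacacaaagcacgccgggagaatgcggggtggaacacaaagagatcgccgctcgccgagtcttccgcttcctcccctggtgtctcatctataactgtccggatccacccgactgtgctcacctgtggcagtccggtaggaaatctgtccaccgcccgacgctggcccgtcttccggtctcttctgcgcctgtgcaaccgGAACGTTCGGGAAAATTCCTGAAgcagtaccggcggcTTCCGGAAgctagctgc
Dnaja1, chr4:40722218-40722517, plus strand: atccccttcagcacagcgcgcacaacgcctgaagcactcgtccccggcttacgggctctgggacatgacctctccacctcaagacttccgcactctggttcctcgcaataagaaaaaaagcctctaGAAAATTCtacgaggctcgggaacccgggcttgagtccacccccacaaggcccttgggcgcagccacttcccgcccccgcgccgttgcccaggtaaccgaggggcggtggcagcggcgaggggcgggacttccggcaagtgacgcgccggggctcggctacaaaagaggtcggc

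The Hspa1a and Hspa1b windows differed at 4 of 300 positions, and each held a single match that began 104 bases before the gene start. Hspa1l is read away from Hspa1a, with 546 bases between the genes in GENCODE M21, and its window held no match. Hsph1 has 2 windows and Dnaja1 has 3, of which the one with most matches is shown. Of the 40 members 33 had a window, and 16 of these, 48.5%, held a pair of units in at least 1 window, against 17% of all 27025 genes of the table. The element of 3 alternating units, each 2 bases from the next, was found in Hsph1, Chordc1 and Dnajb6, 9.09% of members with a window, against 0.662% of all genes. Each motif set covers both strands, and every match of 3 units contains matches of 2. These are matches of letters, and no binding was measured. Hspb2, Cryab, Hspa8, Hsp90aa1, Hsp90ab1, Hsf1 and Cct4 had no entry.

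Values are FPKM, fragments scaled to transcript length and to the mapped fragments of the library, divided by a scale factor for each library. They are called scaled FPKM and compare levels between genes per length; where 4 values are given for a genotype, they are those of libraries 1 to 4 in that order. Summed FPKM lay between 604428 and 681042 per library, 10775 to 11221 genes reached 1 FPKM, and depth relative to the deepest library was 81% to 100%. Carm1 was lower in every knockout than in every control, at 30.5 ± 4.82 scaled FPKM in controls and 15.4 ± 2.57 in knockouts (SD, n = 4 each; exact permutation test, 2-sided, p = 0.0286, which is as low as 70 assignments go). The fibre markers Mylpf (15629 to 32281 FPKM) and Des (978 to 1321 FPKM) were abundant, while Acta1, Ckm, Tnnt3 and Atp2a1 were listed at 0 in some libraries. Mylpf, Tnni2, Myl1 and Pvalb were lowest in knockouts 2 and 4. There Mylpf was at 15629 and 17940 FPKM and Pvalb at 8220 and 10057. Des was lowest in knockout 4 and next in control 1. Knockouts 2 and 4 stood apart here: Tnnt3 and the fast myosin gene Myh4 were above 0 in these libraries alone, Myh4 at 2937 and 3056 FPKM. Each of these libraries had 2 failed estimates against 9 to 13 in the other 6. A listed 0 can be a failed estimate, so it is not read as absence of the transcript. Xist was at 19.6 FPKM in control 1, 22.9 in knockout 2 and 20.5 in knockout 4, against at most 0.0662 in the other 5 libraries, and the Y-linked Eif2s3y was near 0 in these 3 libraries, which goes against their description as male. Myh2, the type IIa myosin, was at 764, 1540 and 1535 FPKM in the same libraries and at 122 to 167 in the other 5. Results are therefore also given with Xist as a covariate, within the 5 libraries without it and within the 3 with it, where 1 control stands against 2 knockouts and values are given with no test. In bulk tissue, fewer cells of a type and less RNA per cell cannot be told apart.

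Among the 40 members the small heat shock genes included the 2 with the highest mean levels. Their 7 genes made up 56.8% ± 3.86 of the summed scaled FPKM of the 40 members in controls and 59.1% ± 6.74 in knockouts (SD, n = 4 each). Cryab, αB-crystallin, had the highest mean over the 8 libraries, 1150 scaled FPKM, followed by Hspb6 with 929. Hsp90ab1 (380), Hspb7 (347), Hspa8 (254), Hspb8 (237) and Bag1 (207) came next. A mean over 100 was found for 12 members and a mean under 10 for 7: Hspa1a, Hspa1b, Hspa2, Hspa4l, Dnaja1, Dnajb1 and Dnajb6. Hspa1b was lowest, at 0.803, and was the 1 member not tested, since it reached 1 scaled FPKM in fewer than 4 libraries.

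**Figure D1:**
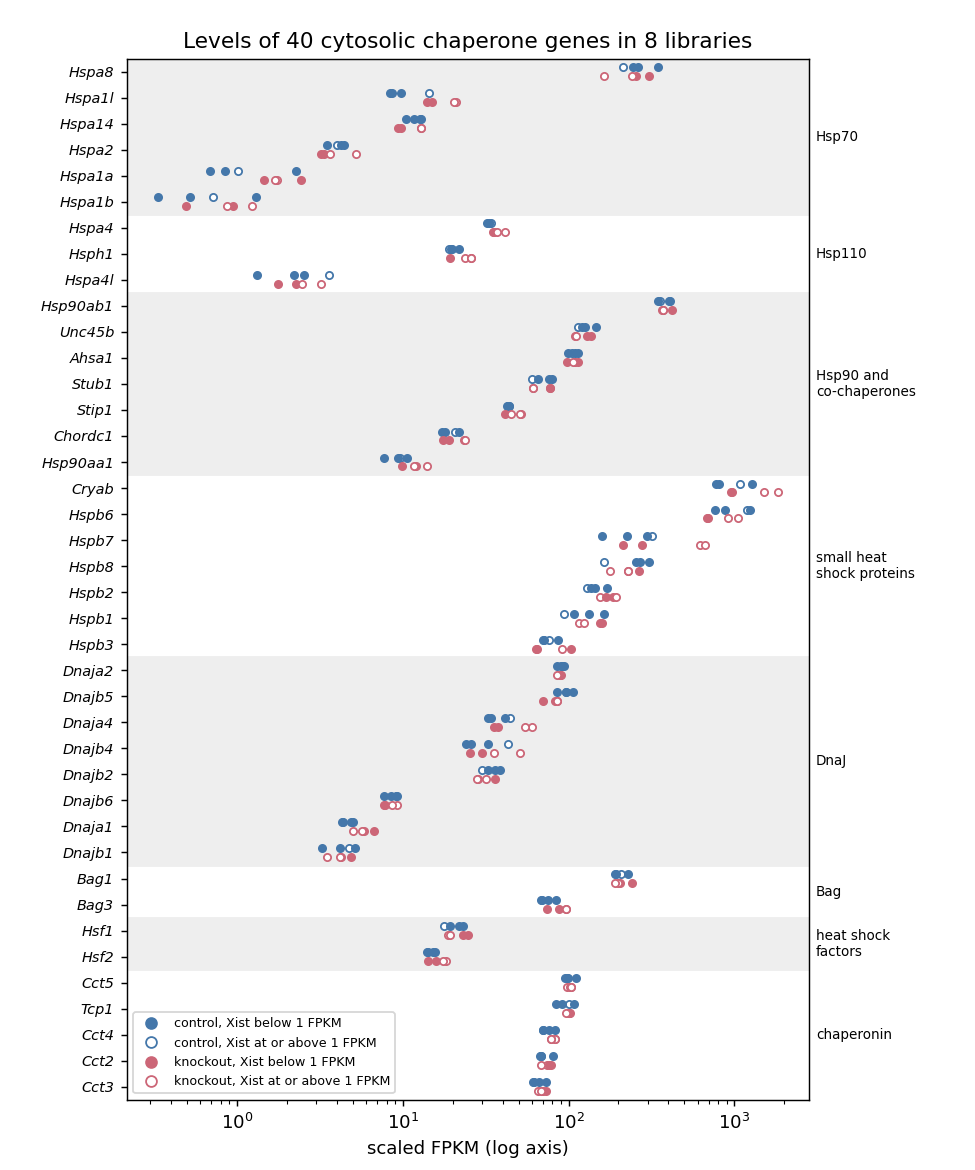
Scaled FPKM (log axis) of the 40 members by role, with 1 point per library, controls in blue and knockouts in red; open points are the 3 libraries with Xist at or above 1 FPKM. Levels run from 0.333 for Hspa1b to 1839 for Cryab.

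No member passed the test between genotypes. With limma over 11096 genes and Benjamini-Hochberg adjustment, 0 of 39 tested members had an adjusted p under 0.05, against 0.360% of all genes, and the smallest was 0.154, for Hspa1l. At an unadjusted p under 0.05 there were 6 members, 15.4%, against 13.1% of all genes, a share near the background. The mean was higher in knockouts for 26 members and lower for 13, with a median log2 difference of 0.067, against -0.0021 over all genes, of which 49.5% were higher. For 25 of 39 members the 95% interval lay within 0.5 on the log2 scale of no difference. Hspa4 was higher in all 4 knockouts than in any control, which held for 4.67% of genes, and Dnajb5 was lower in all 4, which held for 3.64%. With Xist as a covariate 1 member passed, Hspa1l, against 2.01% of all genes. The interaction of genotype and Xist had an unadjusted p under 0.05 in limma for 0 of 39 members, against 2.66% of all genes; it rests on the 1 control with Xist and does not show that the differences are alike with and without Xist. When any 1 library was left out, the difference moved by more than 1.5 times or turned in sign for 30 of 39 members; the exceptions were Hspa1l, Hspa4, Hsph1, Hsp90aa1, Hspb2, Dnaja1, Dnajb5, Bag3 and Cct4.

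**Figure D2:**
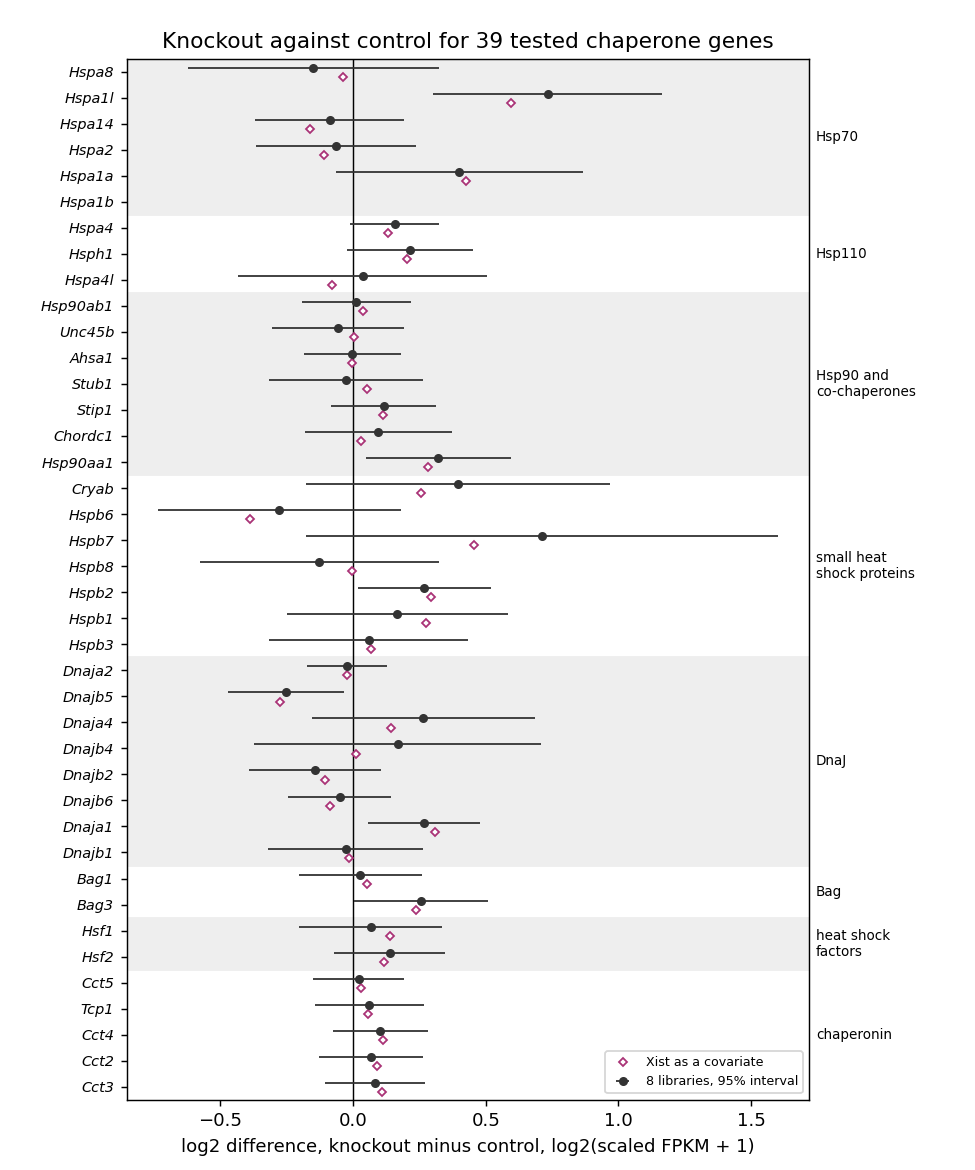
Log2 difference, knockout minus control, of the 39 tested members (black, with the 95% interval from limma) and the same difference with Xist as a covariate (open diamonds); Hspa1b has no value. Before adjustment, the intervals of Hspa1l, Hsp90aa1, Hspb2, Dnaja1 and Bag3 lie above 0 and that of Dnajb5 below.

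Among the Hsp70 genes the constitutive Hspa8 was the most abundant, and Hspa1l, known in mouse mainly from spermatids, had the smallest p of all members. Hspa1l stood at 14.4, 8.60, 9.72 and 8.32 scaled FPKM in controls and at 14.9, 20.9, 14.1 and 20.5 in knockouts. Knockouts 2 and 4 were highest, and control 1, the control with Xist, was the only control to reach the range of the knockouts. The log2 difference was 0.73 (SE 0.19, 95% interval 0.30 to 1.16, limma adjusted p = 0.154). With Xist as a covariate it was 0.59 (SE 0.073, adjusted p = 0.0166), the 1 setting in which Hspa1l passed. It was 0.65 within the 5 libraries without Xist (adjusted p = 0.16), 0.49 within the 3 with it and 0.49 without knockouts 2 and 4 (adjusted p = 0.386). Of the 50-base stretches of Hspa1l transcripts, 9.57% also occur in Hspa1a and 7.72% in Hspa1b, so a small part of its reads cannot be assigned with certainty.

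Hspa1a and Hspa1b, the heat-inducible pair, were near the lower end of detection in every library. Hspa1a stood at 1.02, 0.690, 2.27 and 0.842 scaled FPKM in controls and at 1.47, 1.73, 2.43 and 1.70 in knockouts. Control 3 and knockout 3 were the highest of their groups, and the other 3 controls lay below every knockout. Its log2 difference was 0.40 (SE 0.20, adjusted p = 0.457). Hspa1b stood at 0.721, 0.333, 1.30 and 0.521 in controls and at 0.492, 1.23, 0.945 and 0.874 in knockouts, with groups that overlapped. Of the 50-base stretches of Hspa1a transcripts 58.8% occur in Hspa1b, so the division of reads between them is uncertain, and Gm20481 overlaps Hspa1a on the opposite strand. Both together made up 0.390% to 1.55% of the summed level of Hspa1a, Hspa1b and Hspa8.

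Hspa8 stood at 214, 261, 346 and 244 scaled FPKM in controls and at 256, 242, 307 and 164 in knockouts. Control 3 and knockout 3 were again the highest of their groups and knockout 4 was lowest of all, with overlapping groups and a log2 difference of -0.15 (95% interval -0.62 to 0.32, adjusted p = 0.813). Hspa14, a ribosome-associated Hsp70, stood at 12.9, 11.7, 10.5 and 12.6 in controls and at 9.40, 12.9, 9.75 and 12.9 in knockouts, a difference of -0.088 (SE 0.12, adjusted p = 0.814) that was -0.25 within the 5 libraries without Xist and -0.29 without knockouts 2 and 4. Hspa2, known from spermatocytes, ranged from 3.21 to 5.25, with a difference of -0.064. Over the 5 tested Hsp70 genes the median was -0.064, and 0.0065 without scaling.

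All 3 Hsp110 genes, nucleotide exchange partners of Hsp70, had higher means in knockouts, and none passed. Hspa4 stood at 33.9, 32.4, 33.1 and 33.3 scaled FPKM in controls and at 35.3, 41.1, 35.2 and 37 in knockouts. The groups did not overlap, but the log2 difference was small, 0.16 (SE 0.073, adjusted p = 0.412). It was 0.096 within the 5 libraries without Xist, 0.20 within the 3 with it and 0.086 without knockouts 2 and 4. Hsph1 stood at 19.1, 22, 19.5 and 19.9 in controls and at 19.2, 23.7, 25.7 and 25.8 in knockouts. Knockout 1 lay within the controls and the other 3 knockouts above them, and the log2 difference was 0.21 (SE 0.10, adjusted p = 0.432), with 0.12 within the 5 libraries without Xist and 0.36 within the 3 with it. Hspa4l stood at 3.58, 2.53, 1.32 and 2.22 in controls and at 1.76, 3.23, 2.28 and 2.48 in knockouts, with overlapping groups and a difference of 0.036 (SE 0.21, adjusted p = 0.96).

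Of the Hsp90 genes the constitutive Hsp90ab1 varied little, and the inducible Hsp90aa1 had a higher mean in knockouts that did not pass. Hsp90ab1 stood at 355, 409, 401 and 348 scaled FPKM in controls and at 370, 368, 418 and 369 in knockouts, a log2 difference of 0.013 (95% interval -0.19 to 0.22, adjusted p = 0.968). Hsp90aa1 stood at 9.68, 7.74, 10.6 and 9.34 in controls and at 9.92, 14, 12.1 and 11.8 in knockouts. Knockout 1 was the only knockout within the control range, and the log2 difference was 0.32 (SE 0.12, adjusted p = 0.304). Hsp90aa1 was 2.42% ± 0.380 of the summed level of both genes in controls and 3.04% ± 0.462 in knockouts (SD, n = 4 each).

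The Hsp90 co-chaperones varied little between libraries. Unc45b, which folds myosin in striated muscle, stood at 114, 146, 121 and 125 scaled FPKM in controls and at 137, 110, 129 and 111 in knockouts, and its lowest 3 values were those of the libraries with Xist. Its log2 difference was -0.056 (SE 0.11, adjusted p = 0.867). Ahsa1, which activates the Hsp90 ATPase, stood at 105, 109, 114 and 99.1 in controls and at 97.7, 109, 114 and 107 in knockouts, with a log2 difference of -0.0029 (95% interval -0.19 to 0.18, adjusted p = 0.993). Stip1, which links Hsp70 to Hsp90, ranged from 41.2 to 51.7, and Chordc1, an Hsp90 partner, from 17.2 to 23.7, with differences of 0.12 and 0.096. The ubiquitin ligase Stub1 stood at 60.2 to 60.7 in the libraries with Xist and at 65.8 to 79.1 in the other 5, a genotype difference of -0.028. Of the 39 tested members, 4 were lower in the libraries with Xist without overlap: Hspa8, Hspb8, Unc45b and Stub1. Another 4 were higher: Hspa14, Hspb7, Dnaja4 and Dnajb4. Over all genes 9.37% were lower and 11.4% higher in this way, shares near those of the members. The signs for Unc45b, Ahsa1 and Stub1 turned without scaling and with quantile normalization.

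Small heat shock genes included the widest spread between libraries, with a high level in knockouts 2 and 4. Hspb7, a small heat shock protein of heart and skeletal muscle, stood at 317, 224, 298 and 159 scaled FPKM in controls and at 276, 622, 214 and 662 in knockouts. Knockouts 2 and 4 lay far above all other libraries, while knockouts 1 and 3 lay within the controls. The log2 difference of 0.71 (SE 0.39, adjusted p = 0.488) was 0.15 within the 5 libraries without Xist, 1.02 within the 3 with it and 0.015 without knockouts 2 and 4. Cryab, a partner of desmin, stood at 1083, 804, 1279 and 770 in controls and at 959, 1502, 967 and 1839 in knockouts, with the same libraries highest. Its log2 difference of 0.39 (SE 0.25, adjusted p = 0.545) was 0.057 within the 5 libraries, 0.62 within the 3 and 0.00066 without knockouts 2 and 4.

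The 8 slow-fibre markers, none at 0 in any library, summed to 519 scaled FPKM in control 1, 261 in knockout 2, 280 in knockout 4 and 105 to 192 in the other 5. Single markers differed from the sum. Myh7, Myl2, Myl3 and Tpm3 were highest in control 1, with Myl2 at 148 and Myl3 at 241 FPKM, and Atp2a2 in knockout 4. Tnni1, Tnnc1 and Tnnt1 were highest in knockout 1, a library without Xist, at 26.4, 37.9 and 57.6 FPKM. For that sum control 1 was highest, while for Hspb7 (317) and Cryab (1083) it lay below knockouts 2 and 4. Myh2, whose values are given above, was highest in knockouts 2 and 4 and next in control 1, as was Hspb7. Mylpf, Tnni2, Myl1 and Pvalb were lowest in knockouts 2 and 4, as given above. The 5 tested genes of the fibre list had lower means in knockouts, and 0 passed. Their median log2 difference was -0.42, and -0.0095 with quantile normalization. The part of fibre type in these values was not tested.

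None of the remaining small heat shock genes had its highest values in both knockouts 2 and 4. Hspb6, Hsp20, stood at 1197, 880, 1238 and 763 scaled FPKM in controls and at 688, 916, 693 and 1054 in knockouts. Knockouts 1 and 3 were the lowest libraries, the groups overlapped, and the log2 difference was -0.28 (SE 0.20, adjusted p = 0.606), -0.41 to -0.17 when any 1 library was left out and -0.53 without knockouts 2 and 4. Hspb2, a partner of the myotonic dystrophy kinase, stood at 129, 145, 171 and 137 in controls and at 184, 156, 168 and 192 in knockouts. Control 3 was the only control within the knockout range, and the log2 difference was 0.27 (SE 0.11, adjusted p = 0.352). Hspb2 and Cryab overlap by 1030 bases on opposite strands of chromosome 9, and without strand their reads there cannot be told apart. Hspb1, Hsp27, ranged from 94.2 to 164, Hspb3 from 63.3 to 103 and Hspb8, the partner of Bag3, from 165 to 304, with differences of 0.17, 0.059 and -0.13. When any 1 library was left out, Hspb1 ran from 0.043 to 0.31, Hspb3 from -0.069 to 0.16 and Hspb8 from -0.31 to -0.017. The median over the 7 genes was 0.17, and 5 had higher means.

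**Figure D3:**
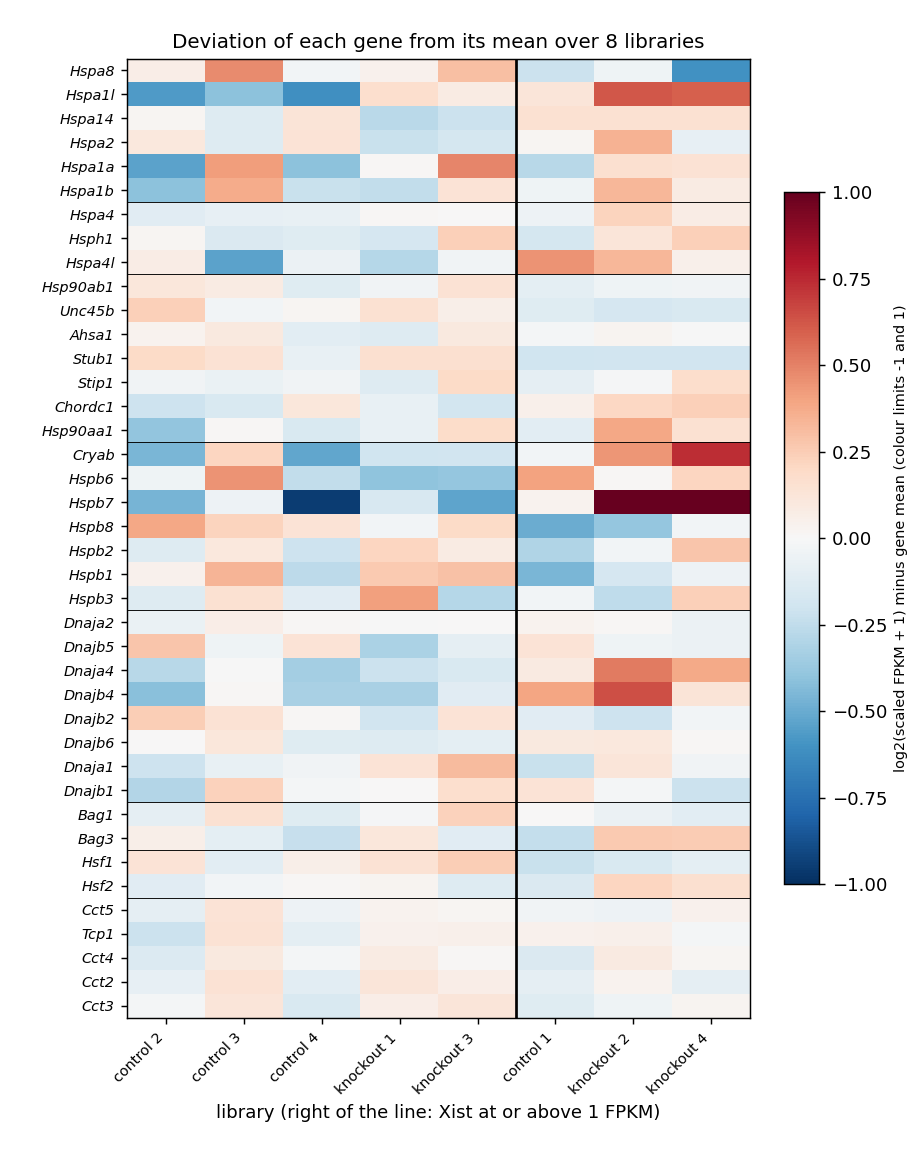
Deviation of log2(scaled FPKM + 1) from each gene's mean over 8 libraries, with genes in rows by role and the 3 libraries with Xist right of the line. Hspb7, Cryab and Hspa1l are high in knockouts 2 and 4, Hspa1a and Hspa8 are high in control 3 and knockout 3, and the chaperonin subunits stay close to their mean.

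DnaJ genes, which deliver clients to Hsp70, had differences in both directions. Dnaja1, a general partner of Hspa8, stood at 4.30, 4.34, 4.87 and 5.03 scaled FPKM in controls and at 5.80, 5.70, 6.68 and 5.02 in knockouts. Knockout 4 was the only knockout within the control range, and the log2 difference was 0.27 (SE 0.093, adjusted p = 0.262). It was 0.33 within the 5 libraries without Xist, 0.26 within the 3 with it and 0.31 with Xist as a covariate (adjusted p = 0.0976). Smu1 overlaps Dnaja1 by 608 bases on the opposite strand. Dnajb5, a DnaJ protein of heart and skeletal muscle, stood at 97.1, 107, 85.6 and 96.9 in controls and at 70.6, 85.6, 82.8 and 84.7 in knockouts. The groups did not overlap, although the lowest control and the highest knockout were equal to 3 significant digits, and the log2 difference was -0.25 (SE 0.097, adjusted p = 0.314). Dnaja2 stood at 91.1, 85.1, 93.2 and 90.0 in controls and at 88.9, 90.0, 89.2 and 85.8 in knockouts, a difference of -0.022 (95% interval -0.17 to 0.13, adjusted p = 0.917).

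Dnaja4 stood at 44.4, 34.3, 41.5 and 32.6 scaled FPKM in controls and at 35.7, 60.2, 37.3 and 54.4 in knockouts. Knockouts 2 and 4 were highest and the other knockouts lay within the controls, and the log2 difference of 0.27 (SE 0.19, adjusted p = 0.588) was -0.052 without these libraries. Dnajb4 ranged from 23.9 to 51.3, was highest in knockout 2, at 51.3, and next in control 1, at 42.9, with a difference of 0.17. Dnajb1, the main heat-inducible DnaJ protein, ranged from 3.26 to 5.12, Dnajb2 from 28.1 to 38.8 and Dnajb6 from 7.66 to 9.24, with differences of -0.028, -0.14 and -0.050. The median over the 8 genes was -0.025, and 0.055 without scaling. Dnaja4, Dnajb6, Hspb6, Stub1 and Tcp1 also overlap protein-coding genes on the opposite strand, so that 9 members in all share such a stretch.

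Bag3, which brings Hsp70 clients of the contracting fibre to autophagy, stood at 68.3, 84.2, 75.5 and 68.7 scaled FPKM in controls and at 87.6, 97, 74.6 and 96.7 in knockouts. Knockout 3 lay within the controls and the other 3 knockouts above them, and the log2 difference was 0.26 (SE 0.11, adjusted p = 0.374). It was 0.090 within the 5 libraries without Xist and 0.50 within the 3 with it. Bag1, another exchange factor of Hsp70, stood at 207, 194, 230 and 190 in controls and at 205, 199, 243 and 192 in knockouts, a difference of 0.028 (95% interval -0.20 to 0.26, adjusted p = 0.932).

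Neither heat shock factor passed the test. Hsf1, the main activator of the heat shock response, stood at 17.7, 23, 19.4 and 21.8 scaled FPKM in controls and at 23.2, 18.7, 24.9 and 19.4 in knockouts, a log2 difference of 0.067 (SE 0.12, adjusted p = 0.855). Hsf2 stood at 13.9, 14.2, 15.3 and 15.7 in controls and at 15.9, 18.2, 14.1 and 17.4 in knockouts, a difference of 0.14 (SE 0.092, adjusted p = 0.563). The groups overlapped for both genes. The activity of these factors, which is controlled at the protein level, was not measured.

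The chaperonin subunits were even across libraries. Tcp1 stood at 101, 84.2, 108 and 91 scaled FPKM in controls and at 100, 101, 101 and 96.4 in knockouts, a log2 difference of 0.061 (SE 0.090, adjusted p = 0.825). Cct4 stood at 70.3, 70.5, 83.2 and 76.5 in controls and at 82.5, 82.9, 78.1 and 78.7 in knockouts, a difference of 0.10 (SE 0.079, adjusted p = 0.633). Cct5 stood at 98.7, 95, 112 and 97.6 in controls and at 104, 97.8, 103 and 104 in knockouts, a difference of 0.021 (SE 0.076, adjusted p = 0.93). All 5 listed subunits had higher means in knockouts, and their groups overlapped. The means were also higher without scaling, as for 7417 of 11073 genes, and with quantile normalization, as for 5572 of 11096. Cct2 ranged from 67.2 to 80.1 and Cct3 from 60.6 to 73.3, with differences of 0.067 and 0.083. Of the subunits outside the list, Cct6a stood at 70.4 ± 3.46 scaled FPKM in controls and 84 ± 2.26 in knockouts (SD, n = 4 each), without overlap, and its log2 difference was 0.25 (limma adjusted p = 0.173). Cct7 and Cct8, named to complete the ring, differed by 0.037 and -0.022, and the median over the 8 tested subunits was 0.064.

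**Figure D4:**
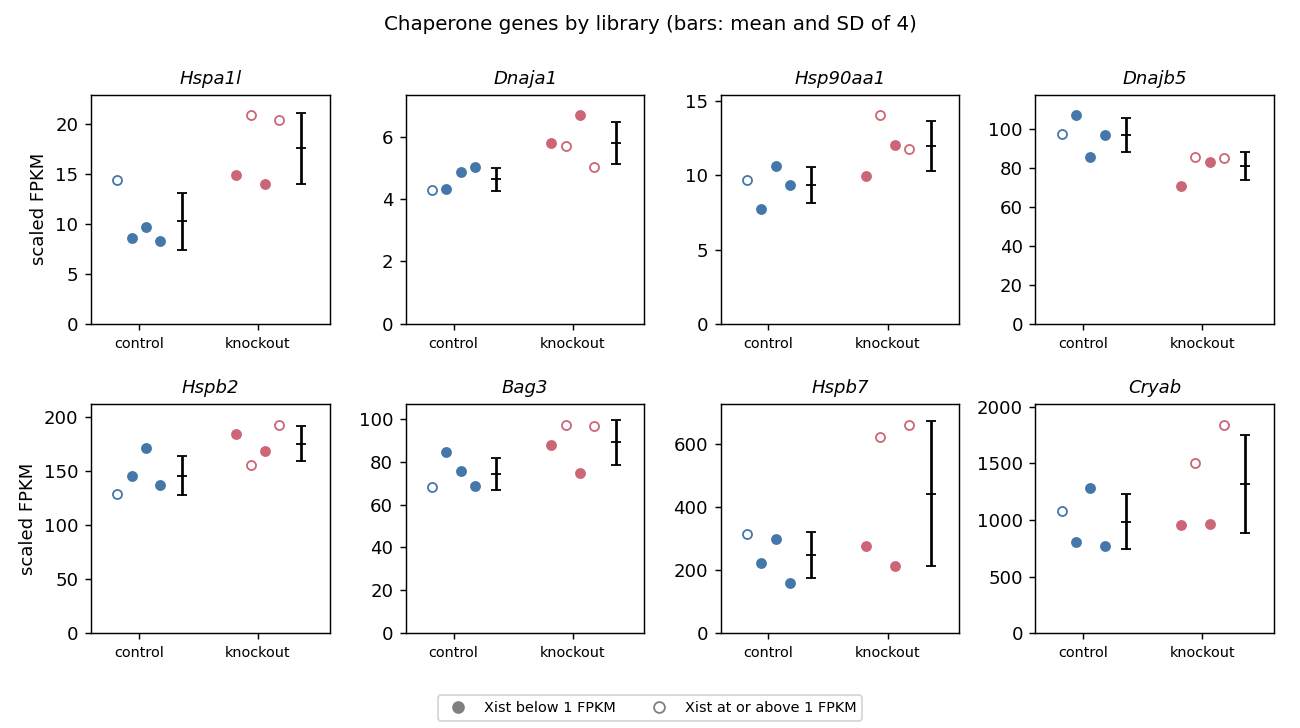
Scaled FPKM by library for 8 members, with the mean and SD of 4 libraries beside each group; open points are the libraries with Xist. Hspa1l, Dnaja1, Hsp90aa1, Dnajb5, Hspb2 and Bag3 are the members with an unadjusted p under 0.05, and Hspb7 and Cryab are high in knockouts 2 and 4.

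Among chaperone genes outside the list, 1 passed. Of 25 tested further co-chaperones of Hsp90 and Hsp70, 0 passed with a higher mean and 1 with a lower mean, against 0.360% of all genes called in either direction. Nudcd3, an Hsp90 co-chaperone for dynein, went from 31.1 ± 2.78 to 18.7 ± 1.04 scaled FPKM (SD, n = 4 each), a log2 difference of -0.70 (limma adjusted p = 0.0246), with every knockout below every control. It was -0.73 (adjusted p = 0.0111) with Xist as a covariate and -0.75 (adjusted p = 0.16) within the 5 libraries without Xist, where the call was lost. Leaving out any 1 library gave -0.74 to -0.65 with adjusted p from 0.0472 to 0.09, and the call was lost without control 1, 3 or 4 or knockout 1, 2 or 4. The median over these co-chaperones was -0.020. Of 9 further chaperonin and prefoldin genes 0 passed and 1 had an unadjusted p under 0.05 in limma, which 13.1% of all genes had, with a median of -0.089; beside Cct6a, the smallest p was that of the prefoldin subunit Pfdn2, at -0.20. Of 16 further DnaJ genes 0 passed and 5 had an unadjusted p under 0.05, with a median of 0.0021, and the smallest p were those of the ribosome-associated Dnajc2, at 0.24, and of Dnajc18, at 0.19. Of 10 mitochondrial chaperones 0 passed and 1 had an unadjusted p under 0.05, with a median of -0.10, led by the import factor Dnajc19, at -0.28, and the disaggregase Clpb, at -0.19.

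Immediate early genes, which respond to handling and activity of the muscle, were lower in mean in knockouts for 13 of 15 tested, with a median log2 difference of -0.34, and 0 passed (5 at an unadjusted p under 0.05 in limma, against 13.1% of all genes). The smallest p were those of the nuclear receptor Nr4a1, at -1.14 (limma adjusted p = 0.125), and the transcription factor Klf2, at -0.59 (limma adjusted p = 0.148). Both were lower in every knockout than in every control, as was Myc, at -0.70 (limma adjusted p = 0.153). Such a lack of overlap held for 3 of the 15 tested, against 3.64% of all genes. All 19 listed summed to 270 to 506 scaled FPKM in controls and 202 to 273 in knockouts, with none at 0. Among controls the sum was highest in control 1. Atf3, Jun, Klf4, Myc and Nr4a3 were highest of their groups in control 3 and knockout 3, as were Hspa1a and Hspa8. In these 2 libraries Atf3 was at 17.2 and 12.1 and Nr4a3 at 38.5 and 20.3 scaled FPKM. The other listed genes did not have this order. The part of immediate early genes in the chaperone values was not tested.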

How the data were processed

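Libraries were made from total RNA of frozen muscle with TruSeq RNA v2, per the labels' protocols. The deposited FPKM values, 1 gene table per library, are the authors' own; STAR, Cufflinks and mm10 are named in the submitters' processing notes, and versions, annotation and read counts are not given in the sources used here. Depth was therefore only estimated between libraries, from the ratios between libraries of values under 0.15 FPKM. Each library was scaled by the median ratio to the gene-wise geometric mean over 10171 genes, and values were taken as log2(scaled FPKM + 1), which understates changes of low genes. Genes that reached 1 scaled FPKM in 4 or more libraries, with no failed estimate in any (23 genes had one), were tested with limma 3.58.1 in R 4.3.3 (trend, 2-sided, Benjamini-Hochberg over 11096 genes, threshold 0.05), after the script was tested on simulated data. Carm1 was tested by exact permutation. Alternatives changed the pseudocount, filter, scaling, covariate, block or libraries; the interaction with Xist and the 3 libraries with Xist were added after the data were examined. The members and lists were chosen with earlier results of these data known. All 8 values are given for the 10 members with the smallest p, the 3 most abundant of each role, and Hspa1a and Hspa1b; other members by range. Outside the members, called genes or the 2 with the smallest p of a list are named. Cct7, Cct8, Hyou1, Atf3, Jun, Klf4, Myc and Nr4a3 were named after their values were seen. Overlaps are from GENCODE M21. Other steps used Python 3.11.15 (scipy 1.17.1, numpy 2.4.6, matplotlib 3.10.9, pandas 2.3.3).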

Additional observations from a re-analysis of the deposited data

Results flagged for a closer look

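In 2 of 82 groups of 4 libraries 1 library stood far from the other 3, while chance marks about 1 group in 20. Hsp90ab1 in knockouts was 418 scaled FPKM in knockout 3 and 368 to 370 in the other 3, a gap of 0.961 of the range of the group. Cct2 in controls was 80.1 in control 3 and 67.2 to 68.2 in the other 3, a gap of 0.924 of the range.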

How the results depend on the processing

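Of all genes, 40 were called, and 32 with a pseudocount of 0.1, 49 without scaling, 32 with quantile normalization, 45 with robust eBayes, 8 with no filter, 15 where the mean had to reach 5 scaled FPKM, 223 with Xist as a covariate, 3 in the 5 libraries without Xist, 16 in the 3 with it, 13 without knockouts 2 and 4, and 2 to 27 when any 1 library was left out, the fewest without control 4 and the most without knockout 3. With the replicate block 0 genes were called. Same-numbered libraries had correlations of -0.432, -0.194, 0.349 and 0.194, and the highest of any pair was 0.479, for control 1 and knockout 2. The numbers thus gave no sign of pairing, which 4 libraries per group cannot exclude. Fits of the 3 libraries with Xist assume that the lone control varies like the knockouts, so only their differences are given. In the other settings members called stayed at 0, except for 1, Hspa1l, with Xist as a covariate. The members' median was 0.15 without scaling, which moved the median of all genes to 0.071, and 0.13 with quantile normalization. In these settings 33 and 30 of 39 members were higher, against 7417 of 11073 and 5572 of 11096 genes. When any 1 library was left out, the members' median was 0.043 to 0.11. The Carm1 difference was -1.02 to -0.84 when any 1 library was left out, each with an exact permutation p of 0.0571, the smallest that 4 against 3 libraries allow. Signs turned 62 times, all for members that did not pass, and the cause was not tested. Log2 differences were then Hspa2 0.0065, Dnaja2 0.066, Dnajb1 0.043, Dnajb6 0.030, Ahsa1 0.085, Unc45b 0.033 and Stub1 0.060 without scaling, Dnaja2 0.052, Ahsa1 0.075, Unc45b 0.022 and Stub1 0.031 with quantile normalization, Hspa4l -0.080, Unc45b 0.0027 and Stub1 0.053 with Xist as a covariate, Hspa8 0.00017, Dnajb1 0.11, Chordc1 -0.047, Unc45b 0.027, Stub1 0.076 and Hsf2 -0.0069 in the 5 libraries without Xist, Hspa4l -0.14, Hspa8 0.098, Hspb8 0.020, Dnaja4 -0.052, Dnajb1 0.074, Dnajb4 -0.14, Chordc1 -0.080, Unc45b 0.076 and Stub1 0.15 without knockouts 2 and 4, and Hspa2 0.11, Hspa4l -0.25, Hspb8 0.28, Dnajb2 0.00014, Dnajb4 -0.0073, Bag1 -0.087, Ahsa1 0.030, Stub1 0.012 and Tcp1 -0.031 in the 3 libraries with Xist. When any 1 library was left out, the sign turned within these ranges: Ahsa1 -0.039 to 0.039, Bag1 -0.045 to 0.083, Cct5 -0.0057 to 0.071, Dnajb1 -0.13 to 0.043, Dnajb4 -0.020 to 0.33, Hsf1 -0.0025 to 0.13, Hsp90ab1 -0.032 to 0.052, Hspa4l -0.14 to 0.19, Hspa8 -0.28 to 0.026, Hspb3 -0.069 to 0.16, Stub1 -0.10 to 0.031 and Unc45b -0.11 to 0.014. Nudcd3 also lost its call without scaling (-0.62), with the replicate block and without knockouts 2 and 4 (-0.76). What depth limits could not be measured without read counts.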

Other observations

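Chaperones of the endoplasmic reticulum had higher means in knockouts for 14 of 17 tested genes, with a median log2 difference of 0.15. In limma over all genes 0 passed, and 6 had an unadjusted p under 0.05, against 13.1% of all genes. Sdf2l1, a cofactor of the Hsp70 protein of that compartment, stood at 2.80 ± 0.187 scaled FPKM in controls and 5.32 ± 1.22 in knockouts (SD, n = 4 each), a log2 difference of 0.71 (limma adjusted p = 0.0757). Manf, a secreted stress protein, stood at 11.7 ± 0.912 and 16.5 ± 1.90, a difference of 0.46 (limma adjusted p = 0.0946). With Xist as a covariate 1 gene passed, Hyou1, at 0.35 (limma adjusted p = 0.0468), against 2.01% of all genes. Its limma adjusted p was 0.0987 without the covariate and 0.304 within the 5 libraries without Xist.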
